A study of Mus musculus with 3 samples.

Results

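Edem1 and 7 other genes of protein quality control in the endoplasmic reticulum (ER) are described here by their crosslink positions in mouse thymocytes. The positions come from an antibody named for both ZFP36L1 and ZFP36L2. The members, Edem1, Edem2, Edem3, Xbp1, Hspa5, Ern1, Atf6 and Man1a, were chosen by gene name, starting from the high 3′ UTR count of Edem1, so the levels below are a description and carry no test. All listed rows with these 8 of 14592 gene names were taken, whatever their segment type. They held 722 of 462392 positions (0.156%) and a summed count of 1278 of 814493. Edem1 alone held 428 of the 722 positions and 65.1% of the summed count.

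The study used iCLIP, in which ultraviolet light joins a protein to the RNA it touches and the crosslink is then read to the base. Libraries were made from total naive thymocytes of the thymus of strain C57BL/6JBabr, irradiated intact at 300 mJ/cm2, with an antibody named Brf1/2 (older names of ZFP36L1 and ZFP36L2). Genotype WT gave 2 libraries from independent experiments, and DCKO, the double conditional knockout of Zfp36l1 and Zfp36l2, gave 1; the labels give neither the Cre driver of the DCKO nor the ages of the mice. The series title speaks of pre-T cells, whereas the sample labels give total naive thymocytes. The values used here are 1 list of positions with no library column, and no source states whether WT, DCKO or all libraries were summed in it. WT and DCKO could therefore not be compared, no value has a replicate error, and counts are not adjusted for transcript abundance. Counts of the DCKO library may be among those listed, and no count can be assigned to ZFP36L1 or ZFP36L2 alone. The 5 thymocyte markers Cd3e, Cd4, Cd8a, Rag1 and Ptcra had summed counts of 11 to 2270, against 2 to 12 for 4 markers of other cells (Lyz2, Hbb-bt, Epcam, Col1a1).

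Proteins that fail to fold in the ER are recognised, moved back to the cytosol and degraded. Mannosidases of the ER and Golgi trim the sugar chains of glycoproteins, and the EDEM proteins act in this step to mark misfolded glycoproteins for disposal. When unfolded protein builds up, the sensors Ern1 (IRE1alpha), Atf6 and Eif2ak3 (PERK) switch on the unfolded protein response. Ern1 splices the mRNA of the transcription factor Xbp1, which raises genes of this pathway, Edem1 among them, and Hspa5 (BiP) is the chief chaperone of the ER lumen. ZFP36L1 belongs to a family that binds AU-rich elements in 3′ UTRs, with a core that reads TATTTA when written as DNA, and promotes mRNA decay.

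Of the 20 copies of TATTTA in the members' 3′ UTRs, 12 had a listed position within 20 nt and 9 had a site, meaning that the authors gave the position an FDR under 0.05. Of those 9, 4 are neighbouring Ern1 copies that share the same 2 sites. The same share over the 3′ UTRs of all genes is not given, and nothing is read from these counts. The copies with a site are shown because they are the places where the known core and the counts meet. Each is given with 12 bases on either side, 5′ to 3′ on the gene's strand, read from GRCm38.p6, with TATTTA in capitals. The first Edem1 copy began 1570 nt after the stop codon at chr6:108857114-108857143 (plus strand), and the second began at 3663 nt, at chr6:108859207-108859236. The Edem3 copy lay at chr1:151819912-151819941 (plus), that of Xbp1 at chr11:5525840-5525869 (plus) and that of Man1a at chr10:53907001-53907030 (minus). Of the 4 neighbouring Ern1 copies, the first is at chr11:106395145-106395174 and the other 3, adjoining or overlapping, are in the stretch chr11:106395132-106395161 (minus).
Edem1, first copy: tgcaattggtctTATTTAtttgttaagaat
Edem1, second copy: aaataagaactgTATTTAaattaaatggga
Edem3: ttttattcatttTATTTAtttttgaacttg
Xbp1: gctttctccattTATTTAaaactacccttg
Man1a: taataaattaagTATTTAaaaaaaaaaagc
Ern1, first copy: tttgcaatgacaTATTTAttgaatctattt
Ern1, next copies: atttattgaatcTATTTATATTTATTTAat

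Edem1, which encodes a mannosidase-like lectin of ER-associated degradation, lies on the plus strand of chromosome 6 from position 108828641 to 108859356 (gene ENSMUSG00000030104.9). Its principal transcript has 12 exons and a 3′ UTR of 3792 nt within the last one. The gene had a summed count of 832, of which 413 (49.6%) were labelled 3′ UTR, 376 (45.2%) intron and 43 (5.17%) coding. Over all protein-coding genes the shares were 13.2% for 3′ UTR, 76.9% for intron and 9.13% for coding. Per length, the level in Edem1 was 108.9 counts per kb of 3′ UTR, 22.0 per kb of coding sequence and 15.1 per kb of intron. Position by position, the 3′ UTR held 58 counts of 1, 97 counts of 2, 19 counts of 3 or 4 and 14 counts of 5 or more. In the whole list 50.5% of positions had a count of 1 and 44.0% a count of 2.

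Of the 188 Edem1 positions labelled 3′ UTR, 98 (52.1%) were sites, beside 37.8% of all 3′ UTR positions in the list. These 98 sites held 260 counts, which placed Edem1 seventh of 2222 genes and was 0.614% of all 3′ UTR site counts. Its neighbours in that order were Cxcr4 (369 counts) and Lars2 (353) above and Cd3e (238) and Med13 (224) below. Set per kb of 3′ UTR, they had 573, 358, 301 and 56.7 site counts, against 68.6 for Edem1, whose 3′ UTR is longer than those of Cxcr4, Lars2 and Cd3e. By that measure Edem1 ranked 58 of the 2030 genes with a 3′ UTR of at least 200 nt, where the median was 4.75.

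The Edem1 sites formed 8 clusters when sites at most 30 nt apart were joined, and the 3 strongest held 185 of the 260 counts (71.2%). The strongest cluster, chr6:108857115-108857150, held 20 sites and 89 counts around the first TATTTA copy. Its highest position, 108857116, had a count of 11, the highest of this 3′ UTR, and TATTTA began 10 nt after it. Within 20 nt of this copy, 33 counts lay on its 5′ side, 8 inside it and 48 on its 3′ side. The second copy had 9 counts on its 5′ side, 11 inside and 3 on its 3′ side, in a cluster of 15 sites and 30 counts (chr6:108859191-108859228). A remaining copy, 3497 nt after the stop codon, had 2 positions with a summed count of 3 within 20 nt and no site.

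**Figure D1:**
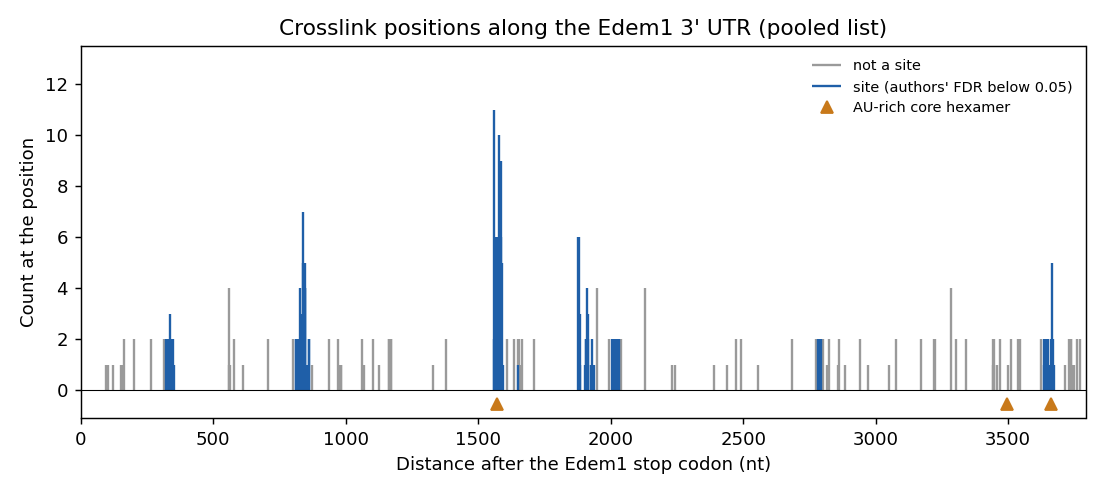
Count at each listed position (vertical axis) against distance after the stop codon in nt (horizontal axis) for the Edem1 3′ UTR, with sites in blue, other positions in grey and the start of each TATTTA copy as a triangle. The highest counts, up to 11, stand at the copy 1570 nt after the stop codon, whereas the cluster at 1876 to 1937 nt has no copy beside it.

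The other 6 clusters of the Edem1 3′ UTR, with 141 counts, had no site within 20 nt of TATTTA. They are shown because they hold more of the site counts than the TATTTA clusters do. Of these 6, 5 are described here, not including the one with the most counts. For 4 of the 5, the 30 bases with the highest summed count are given, with every base that had a listed count in capitals.
chr6:108857461-108857490: GGTTTtggTtTTggttttgttTtGtttTGT
chr6:108855879-108855908: CttgctTtgcccccGTTgCTGTgcTgaaGt
chr6:108857560-108857589: tcTtgaTTaagCttgggTTgcttctTGctc
chr6:108858329-108858358: gcgTactttTtgTaaTtggatTtctagTtc

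The first of these windows held 21 thymidines in 30 bases and 22 counts. It belongs to a cluster of 18 sites with 40 counts, whose highest position, 108857432, had a count of 6. The other windows held 11, 14 and 15 thymidines, and their clusters had 21, 15 and 8 counts. The fifth cluster described was a single site with a count of 1. So the strongest cluster of this 3′ UTR lay on an AU-rich core, whereas the first window shown here is thymidine-rich with interspersed guanines and holds no TATTTA.

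For shares of sites, a site was counted as near a motif where the whole motif lay in the window of 20 nt on either side of it, a stricter rule than a distance of 20 nt from the nearest base of a copy, which the counts around single copies use. By this rule 28 of the 98 Edem1 sites were near TATTTA, 28.6% (95% Wilson interval 20.6 to 38.2), beside 28.9% of all 16591 3′ UTR sites. The 28 sites lay in 2 of the 8 clusters, and the interval, which takes sites as independent, is too narrow for that. By the summed count at sites, and not their number, the share was 41.2% in Edem1 (107 of 260) and 34.6% in all. Over every listed 3′ UTR position it was 26.6% in Edem1 (110 of 413) and 21.0% in all. Over positions with a summed count of 5 or more within 15 nt, the same rule in every gene, it was 32.6% in Edem1 and 33.98% in all, so the order of Edem1 and the whole list turned with the rule. Motifs were searched on the gene's strand only, and ATTTA includes every TATTTA. The pentamer ATTTA added no Edem1 site, whereas it was near 36.4% of all 3′ UTR sites. TTTTTT lay near 25 Edem1 sites (25.5%, against 32.0% in all) and CTCTCT near 13 (13.3%, against 2.08%), which all sites of 1 stretch can share. TGTGTG lay near none of the 98. The base at the site was T at 65.3% of Edem1 sites and 65.8% of all 3′ UTR sites, and 55.1% and 59.5% lay in soft-masked (repeat or low-complexity) sequence. By cluster the masked share was uneven. It was 80% of sites in the strongest Edem1 cluster and 100% in that at chr6:108857432-108857493, and 5 of the 8 clusters had no masked site.

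The Edem1 counts were spread over many positions. Its highest position held 4.23% of the site counts of the 3′ UTR, and in 52 genes with at least 100 such counts this share ran from 3.48% to 22.1% with a median of 7.56%. It was lower than in Edem1 in 2 of them. The genes were not matched to Edem1 for total count or 3′ UTR length, on which this share can depend. The authors' threshold depended on the gene and segment. In the Edem1 3′ UTR, the weakest sites had an extended value (the sum of counts within 15 nt) of 10 and the strongest position below the threshold had 9. In Edem1 introns a value of 4 was enough and in coding sequence a value of 6, and in the 3′ UTRs of the other members 3 to 7.

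Introns of Edem1 carried nearly as many counts as its 3′ UTR, at a lower level per kb. All 11 introns had positions, 9 had sites, and 123 of the 216 intron positions were sites (56.9%, beside 28.8% of all intron positions). The level ran from 2.95 counts per kb in intron 11 to 70.5 in intron 9, with a median of 11.9 over the 11 introns. Intron 9 held 85 counts in 1206 nt, and intron 1, with 89 counts, is 7506 nt long.

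**Figure D2:**
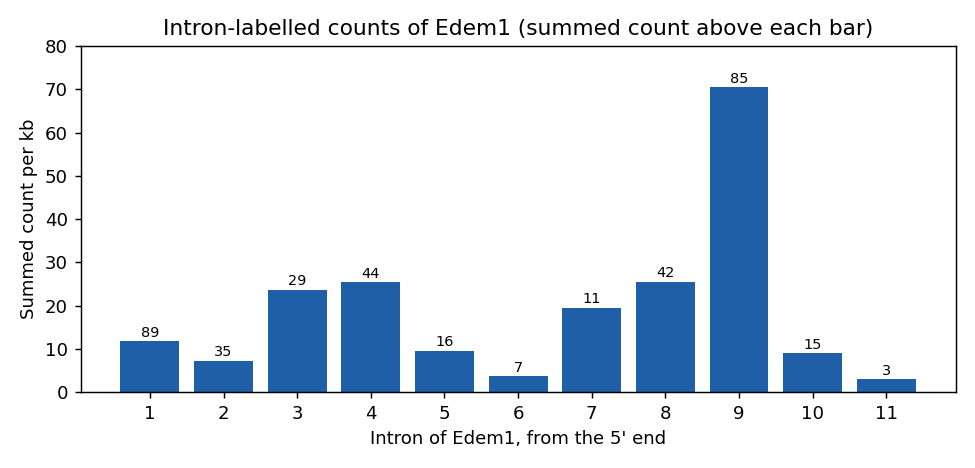
Summed count per kb (vertical axis) in each of the 11 introns of Edem1 (horizontal axis, numbered from the 5′ end), with the summed count above each bar. Intron 9 stands at 70.5 counts per kb and the other introns at 25.5 or less.

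The intron 9 signal lay mainly in 1 cluster at its start, chr6:108851283-108851416, with 25 sites and 58 counts. The cluster began on the last base of exon 9, which had a count of 6 and is labelled coding, and went on into the intron. GENCODE lists a retained-intron transcript of Edem1 here (chr6:108848632-108851642), whose exons held 64 of the intron-labelled counts. Whether these counts came from that transcript or from unspliced RNA was not tested. Other strong intron clusters lay in intron 1 (26 counts) and intron 4 (18 counts). The 30 bases with the most counts of the clusters in introns 9, 1 and 4 are shown to set them beside the 3′ UTR clusters, together with the intron 10 cluster of 11 counts, whose highest position lies 12 nt before exon 11. Bases with a listed count are in capitals.
Intron 9, chr6:108851303-108851332: tatTTTAttGtttgGATGTTtgtGaTtgaC
Intron 1, chr6:108833897-108833926: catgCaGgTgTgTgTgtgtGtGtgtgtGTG
Intron 4, chr6:108844643-108844672: cTTTtttTTtTttttttttTttTttTaatt
Intron 10, chr6:108854215-108854244: ttcttattgcTTCTTtttTtctatctttag

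The intron 1 window is a run of TG repeats and the intron 4 window held 27 thymidines. Among the 21 Edem1 clusters labelled intron alone, 1 had a site near TATTTA by the whole-motif rule. Close to 3′ splice sites, the 60 nt before an exon held 27 of the 123 intron sites (22.0%) and 51 of their 239 counts (21.3%), in 7 clusters. Over all protein-coding genes these 60 nt held 11.2% of intron sites and 10.7% of their counts. In the other members with intron sites (Edem3, Atf6 and Man1a) the share was 2 of 42 sites. Coding positions of Edem1 numbered 24 with 43 counts, of which 2 were sites (8.33%, beside 19.4% of all coding positions).

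The other 7 members together had 294 positions and a summed count of 446, of which 84 were labelled 3′ UTR. Counts labelled intron made up 73.3% of theirs, beside 76.9% over all protein-coding genes, and 18.8% were labelled 3′ UTR. Man1a held 181 of these 327 intron counts, and by member the intron share ran from 3.1% in Hspa5 to 90.5% in Man1a. Across the 8 members, 5 had a 3′ UTR site (Edem1, Edem3, Xbp1, Ern1 and Man1a), where 17.7% of 12541 protein-coding genes had one. The 8 members were not picked at random, and nothing is read from that share. By the authors' labels a coding site was listed for 3 members (Edem1, Edem2 and Hspa5), beside 13.1% of genes. An intron site was listed for 4 (Edem1, Edem3, Atf6 and Man1a), beside 55.6%. In GENCODE the coding-labelled sites of Edem2 lie in an intron and those of Hspa5 in a 5′ UTR. The whole list had sites at 30.7% of positions, and the members at 288 of 722. Edem1 alone supplied 223 of these sites, at 428 positions, so the member total mostly describes Edem1.

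**Figure D3:**
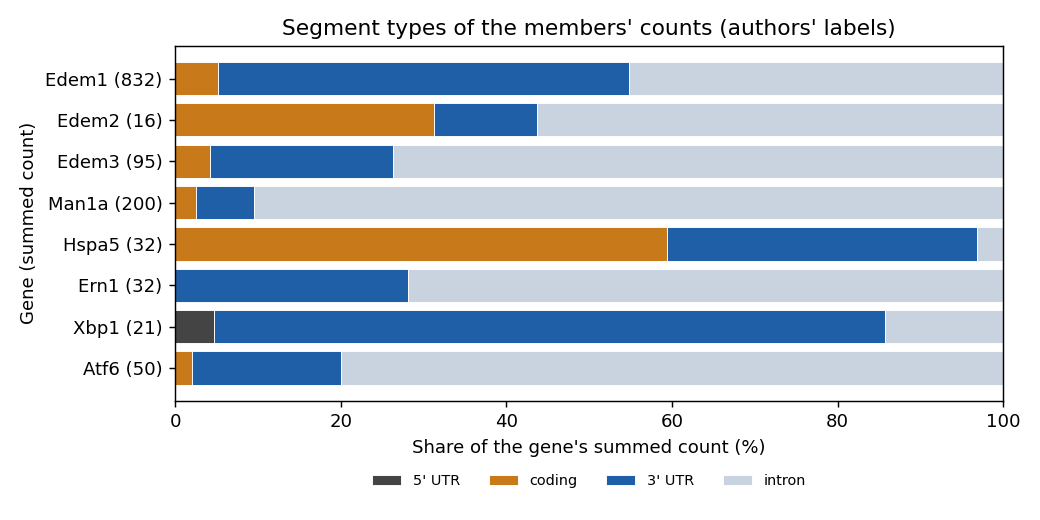
Share of each member's summed count (horizontal axis, %) by the authors' segment type, with the summed count in brackets after the gene name. The 3′ UTR makes up 49.6% in Edem1 and 81.0% of only 21 counts in Xbp1, and introns make up 90.5% in Man1a.

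Among the relatives of Edem1, Edem3 had 95 counts at 58 positions and Edem2 16 counts at 11. Edem3, on the plus strand of chromosome 1 (151755371 to 151822051), had 21 counts in its 3′ UTR of 3338 nt, 6.29 per kb, against 108.9 for Edem1 in a 3′ UTR of similar length. Its 9 sites there, with 15 counts, formed 3 clusters of 5, 3 and 7 counts, no position above a count of 2. By the whole-motif rule TATTTA was near 2 of these sites and ATTTA near 6. Of the 4 TATTTA copies of Edem3, 3 had no listed position within 20 nt. The highest Edem3 position, with a count of 10 at 151788879, lay in intron 8. Edem2, on the minus strand of chromosome 2 (155701677 to 155729475), has a 3′ UTR of 418 nt with no TATTTA and 1 listed position there, with a count of 2. The 3 Edem2 sites, labelled coding with 4 counts, lie in an intron of GENCODE, 167 nt into intron 7 at the highest of them.

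Man1a, a Golgi mannosidase that trims sugar chains, had the second largest summed count, 200 at 141 positions, on the minus strand of chromosome 10 (53904785 to 54076609). Of these counts 181 lay in introns, at 1.09 per kb over introns of 165.9 kb in all. The 32 intron sites formed 11 clusters of 3 to 12 counts, 4 of them with a site near TATTTA. The 3′ UTR had 9 positions and 14 counts, and its 3 sites, with 5 counts, lay beside the TATTTA copy 419 nt after the stop codon. The other copy, at 1998 nt, had no position within 20 nt.

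The sensors Ern1 and Atf6 had few counts for long genes. Ern1, a kinase and endoribonuclease on the minus strand of chromosome 11 (106394650 to 106487852), had 32 counts at 20 positions, 9 of them in the 3′ UTR and 0 in coding sequence. Its 2 sites, with 3 counts, lay among the 4 TATTTA copies that stand together 3380 to 3403 nt after the stop codon. Atf6, a membrane-bound transcription factor on the minus strand of chromosome 1 (170704674 to 170867771), had 50 counts at 30 positions. Its 3′ UTR of 5205 nt had 9 counts and no site. The 4 Atf6 sites lay in introns, with 14 counts in 2 clusters that each had a site near TATTTA, and the highest, with a count of 8, was at 170834520 in intron 7. A further 6 positions with 16 counts inside Atf6 carry the name Gm23523, a gene labelled snRNA, and were not counted as Atf6.

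Xbp1, the transcription factor activated by Ern1, had 21 counts at 14 positions on the plus strand of chromosome 11 (5520659 to 5525893). Of these, 17 counts lay in the 3′ UTR of 989 nt, 17.2 per kb, and 0 in coding sequence. Its 3 sites, with 7 counts, lay just before the single TATTTA copy, where the highest position had a count of 4. Hspa5, on the plus strand of chromosome 2 (34771970 to 34777547), had 32 counts at 20 positions. Its 3′ UTR of 1434 nt held 12 counts, 8.37 per kb, and no site, although its extended value reached 5, a value that made a site in Man1a. Of its 4 TATTTA copies, 1 had listed positions within 20 nt. The 3 Hspa5 sites, labelled coding with 5 counts, fall in a 5′ UTR of GENCODE.

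By counts per kb of 3′ UTR over all listed positions, the order was Edem1 (108.9), Xbp1 (17.2), Hspa5 (8.37), Edem3 (6.29), Man1a (5.28), Edem2 (4.78), Ern1 (2.31) and Atf6 (1.73). The median of 5197 protein-coding genes with a listed 3′ UTR position and at least 200 nt was 3.90, and Edem1 ranked 51. From Xbp1 down, each value rests on 2 to 21 counts of the pooled list, so neighbours in that order are not separated by any measured spread. A listed 3′ UTR position was found for all 8 members and for 45.9% of protein-coding genes. With 1 rule for every gene, an extended value of 5 or more, 5 members had such a 3′ UTR position (Edem1, Edem3, Xbp1, Hspa5 and Man1a), beside 12.5% of genes.

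**Figure D4:**
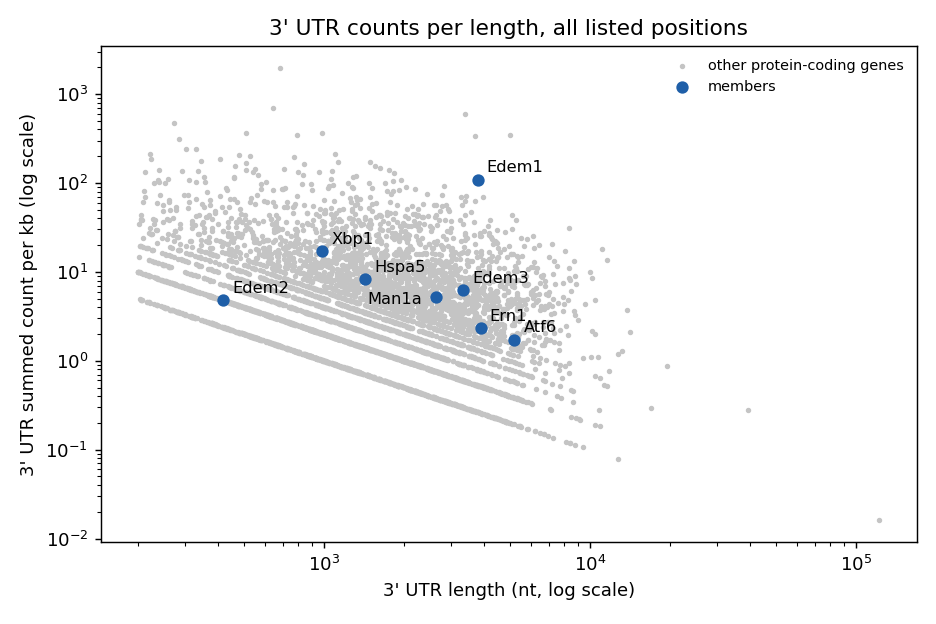
Summed 3′ UTR count per kb (vertical axis, log scale) against 3′ UTR length in nt (horizontal axis, log scale) for protein-coding genes with a listed 3′ UTR position, with the 8 members in blue and other genes in grey. Edem1 stands at 108.9 per kb and the other members between 1.73 and 17.2; the grey diagonal lines are genes with the same small count.

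Other ER quality control and unfolded protein response genes were taken from a list of 65, written with earlier results of these data known, of which 64 had a listed position, 4 under an older symbol. A 3′ UTR site was found for 17 of the 64 (26.6%, beside 17.7% of protein-coding genes). Their median summed count over all segments was 34, against 13 for all protein-coding genes and 41 for the members. Of their 86 sites, 46 (53.5%) lay near TATTTA, beside 28.9% of all 3′ UTR sites. These 46 came from 8 of the 17 genes, with 16 in Eif2ak3, 10 in Ganab and 8 in Mbtps1. Eif2ak3, another sensor of the unfolded protein response, had 16 sites with 124 counts, all 16 near TATTTA and all within 1 stretch whose extended value reached 124. Its 3′ UTR is 957 nt long, so that over all listed 3′ UTR positions it had 132.7 counts per kb, more than the 108.9 of Edem1.

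In the disposal branch, Derl1, a membrane channel component, had 11 sites with 39 counts, 2 of them near TATTTA. Rnf5, a ubiquitin ligase, had 3 sites with 7 counts, and Ufd1, a partner of the extraction ATPase, had 4 sites with 7 counts. Among glycoprotein folding and transport genes, Ganab, a glucosidase subunit, had 10 sites with 25 counts, all near TATTTA. Lman1, a cargo receptor, had 4 sites with 7 counts, and Canx, the chaperone calnexin, 3 sites with 4 counts. In the signalling branch, Mbtps1 and Mbtps2, the proteases that release Atf6, each had 16 counts, at 8 and 6 sites. Manf, a secreted ER stress factor, also had 16 counts, at 4 sites, and the transcription factors Atf4 and Creb3l2 had 4 sites with 12 counts and 2 sites with 4 counts. Each of these named genes, Eif2ak3 included, had fewer 3′ UTR site counts than Edem1, which was chosen for its high 3′ UTR count. That order does not take length into account. Atf4, for example, had 17 listed counts in a 3′ UTR of 81 nt, too short for the per-kb ranks.

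By the shares of counts over segment types, the genes most like Edem1 among 1595 with at least 100 counts were Cd164, Cep97 and Zfp451. Their shares differed from those of Edem1 by 2.76, 2.87 and 2.95 percentage points in all, with 3′ UTR shares of 51.0%, 50.2% and 49.7%. Within the spans of the 8 members no position was listed on the opposite strand. In the 5 kb after the end of Edem1, 17 positions with 29 counts on its strand carried no gene name, and Edem2 had 2 such positions with 3 counts and the other members 0. The authors' segment label was the same as that of GENCODE at 708 of 722 member positions, including all 428 of Edem1. The 14 others were labelled coding and lie in Edem2, Hspa5, Atf6 and Man1a.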

How the data were processed

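The deposited list has 1 row per stranded position, with segment type, gene name, a signed whole-number score that its header calls counts, an extended score, a p-value and an FDR. Per the file header, the extended score covers 15 nt; summing the authors' counts within 15 nt in the same gene and segment type gave it at 722 of 722 member positions. The deposited p-value was not used as a test. The submitters' processing notes name Bowtie and GRCm38; further steps, and whether a position is the crosslinked base or the one beside it, are not given in the sources used here. Labels at coding exon edges showed that positions count from 0 (832 of 832 at first bases, 144 of 156 after last bases), and coordinates here count from 1. Sites have a deposited FDR, itself a score that exceeds 1 at some positions, under 0.05. Depth per library is unknown, and Wilson intervals (95%) cover counting error only and take neighbouring sites as independent. Lengths and exons are those of the GENCODE vM21 principal transcript with the longest coding sequence; sequence is from RefSeq's GRCm38.p6, read with pysam 0.24.0 under Python 3.11.15. On simulated sequence with no T in its background, 200 of 200 planted TATTTA copies were found, which checks the search code only. Named genes are the members, up to 12 listed pathway genes by 3′ UTR site count, 4 rank neighbours, 3 most alike in segment shares and genes overlapping members. Members and lists were chosen with earlier results of these data known. No comparison of WT with DCKO was possible. One marker gene and one Edem1 3′ UTR cluster are not reported here.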

Additional observations from a re-analysis of the deposited data

How the results depend on the processing

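No value has a replicate error, and site counts of different genes rest on thresholds that differ by gene and segment. When every listed position was used and not sites alone, Edem1 had 188 3′ UTR positions, 8 members and 46 pathway genes had one, and TATTTA lay near 26.6% of Edem1 3′ UTR counts and 17.8% of member positions. With an extended value of 5 or more in every gene, chosen after seeing the data, these TATTTA shares were 32.6% and 23.6%. Without Edem1, also chosen after seeing the data, 58.8% of the 17 member sites lay near TATTTA (33.0% with it) and 73.3% of counts were labelled intron (55.0% with it); over sites alone the intron share was 51.5%. The other 16 alternative values, among them FDR below 0.01, windows of 50 nt, the motif ATTTA and GENCODE segments, stayed within 1.5 times of a count or within the Wilson interval of a share. Those intervals take neighbouring sites as independent and serve here only as a fixed yardstick. No paired analysis was possible because the list has no library column.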
